A study of Bos taurus with 20 samples.

Results

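Genomic imprinting leaves a gene active mainly on the copy inherited from 1 parent. Imprinted genes lie in domains that share a control region, whose DNA methylation is set in the germ line and copied at each cell division. Many of them set how much cells grow, and DLK1 (also called preadipocyte factor 1) is known as a brake on fat cell formation that preadipocytes carry and lose as they mature. The genes described here are 10 imprinted growth regulators, DLK1, MEG3, PEG3, NDN, PLAGL1, PEG10, SGCE, MEST, NNAT and IGF2R, taken by symbol from the 33063 named genes of a raw count table. They belong to 8 imprinted domains, since DLK1 lies beside MEG3 and PEG10 lies beside SGCE in RefSeq's bovine gene order (ARS-UCD2.0). The counts do not tell the parental copies apart, so imprinting itself was not measured.

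RNA was sequenced from 20 clonal cultures of bovine mesenchymal stem cells (MSCs), multipotent stromal cells that can form fat, bone and cartilage. Adipogenic (A) clones had formed lipid-filled cells in a differentiation test and non-adipogenic (N) clones had not, with 10 clones of each kind, the A clones being those that had differentiated most. Every clone descended from 1 sorted cell of the visceral fat of a Holstein Friesian x Aberdeen Angus calf, was grown in serum with the growth factor bFGF, and the labels name no genetic change or treatment. RNA was taken without differentiation. The clones came from 4 animals, with a single pair of A and N clones from animal 17 and another from animal 20, and with 4 clones of each kind from both animal 22 and animal 23. Clones are named here by kind, animal and clone number, so that N 22-5 is non-adipogenic clone 5 of animal 22. The clones of 1 animal share that animal, and the p-values measure the spread between clones after the animal is taken out.

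Total counts ranged from 14908802 to 43111345 in N clones and from 14615493 to 29185355 in A clones. The 7 MSC markers checked were detected, and none of them was called as different between A and N clones. Their summed level ran from 9010 to 23800 CPM (counts scaled to library size by edgeR's TMM factors). Most of it was COL1A1, with means of 13580 CPM in A and 10430 CPM in N clones. In N 22-5, the lowest N clone for each of them, THY1, NT5E and ENG held only 0.395, 0.508 and 19.1 CPM. Their medians in N clones were 50.1, 83.2 and 347 CPM. The same clone held 0 counts of MEG3, PEG3 and NDN. Markers of mature adipocytes summed to between 4.32 and 31.4 CPM in N clones and between 7.9 and 29.3 CPM in A clones. Of the 3 tested, 1 was called, PLIN1, which was higher in A clones (edgeR test described below, log2 fold change 0.53, adjusted p = 0.0456). CIDEC had a log2 fold change of -0.64 (adjusted p = 0.129). Clones N 22-5 and N 22-9 stood apart in mesothelial markers, with 4779 and 2727 CPM of KRT8, an epithelial keratin, whereas the remaining N clones held 0 to 2.83 CPM. Clones A 22-11, A 22-16 and A 23-62 held 585, 446 and 159 CPM of KRT8 and the other A clones between 0 and 13.3 CPM. The values of called genes, and of MEST, are also given without these 5 clones. Leaving them out does not remove all mesothelial expression. Summed over 8 mesothelial markers, N 23-10, N 23-22 and N 23-74, which stay in, held 236.1, 276.5 and 254.1 CPM. Of the A clones that stay in, A 23-108 held the most, with 122.6 CPM. A 23-62, with 385.5 CPM, is among the clones left out. Of the 6 such markers tested, 1 was called, MSLN, which was lower in A clones (edgeR test described below, log2 fold change -1.97, adjusted p = 0.0393).

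DLK1, a transmembrane ligand related to the Notch ligands whose shed outer part restrains adipocyte differentiation, had 0 counts in every clone. Over all 20 clones this was 0 of 388272232 counts, which allows a level of up to 0.00782 CPM, and in single clones up to between 0.0764 and 0.216 CPM (3 counts, counting error only). Whether reads of DLK1 could be counted at all with the authors' annotation cannot be checked from the table, so these limits hold only if they could. No comparison of DLK1 between A and N clones could be made. DLK2, its closest relative, had too few counts to be tested.

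Of the 9 members that could be tested, PEG3 and MEG3 were higher in A clones and the other 7 did not pass the test (edgeR's quasi-likelihood test with animal as a block, adjusted p under 0.05). The 2 calls are 22.2% of the members tested, beside 20.6% of all 12900 genes tested, so the share called was near that of the whole table. Both calls were also higher by at least 2-fold. Of all genes tested, 5.76% were called with such a change and 3.95% with a rise of this size. PEG3, however, passed the filter on low counts mainly through its A clones, with 10 to 65 counts against 0 to 19 in N clones. Its place among the genes tested therefore depends in part on that filter, and its rise cannot be weighed against these shares. In the same test with no filter on low counts, PEG3 had a log2 fold change of 3.59 (adjusted p = 0.00455). MEG3 was not called there (4.17, adjusted p = 0.0754). The median log2 fold change of the 9 members was 0.38, with 6 of them above 0, against a median of -0.01 over all genes tested. No member had all A clones above all N clones or all below them, a separation that 0.225% and 0.093% of the genes tested showed.

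**Figure D1:**
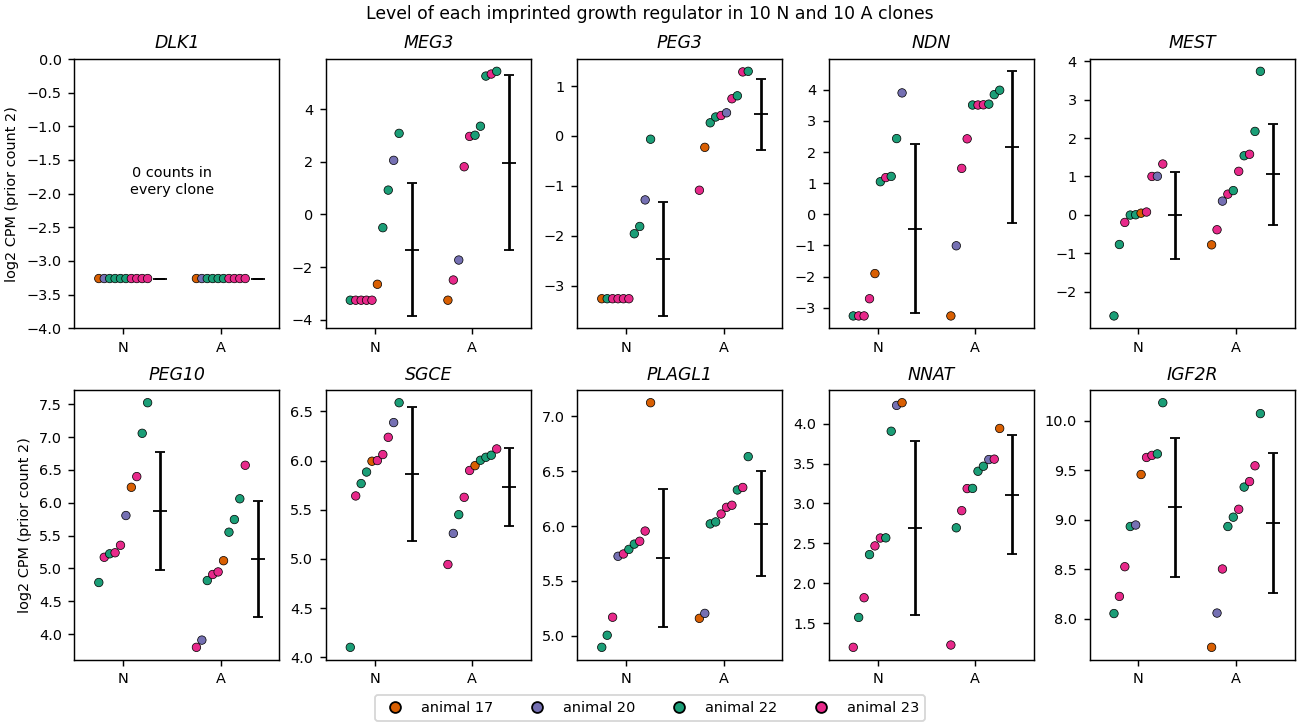
Level of each of the 10 members as log2 CPM (prior count 2, each panel with its own axis) in 10 N and 10 A clones, sorted by level, with 1 point per clone coloured by animal and the mean with SD of each group at its right. DLK1 was at 0 counts in every clone, 8 of 10 A clones lay above every N clone in PEG3, and the groups overlapped in all other members.

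MEG3, a long non-coding RNA made from the maternal copy of the DLK1 domain, was the member with the largest fitted difference. In N clones it lay between 0 and 8.35 CPM with a median of 0.0272, and 6 of the 10 N clones held at most 1 count. In A clones it lay between 0 and 43.3 CPM with a median of 7.83. The 3 highest clones were A 22-11 with 43.3, A 23-62 with 40.3 and A 22-16 with 38.2 CPM, while A 17-57 and A 23-108 held 0 and 2 counts. Thus 4 A clones lay above every N clone and the other 6 overlapped with N clones. Its log2 fold change was 4.19 (SE 1.44, adjusted p = 0.0477).

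That call stood close to the threshold and its direction was that of animals 22 and 23. In animal 22 the mean was 24.9 ± 18.4 CPM in A clones and 2.69 ± 3.85 CPM in N clones (SD, n = 4 each). In animal 23 it was 12.9 ± 18.5 CPM in A clones and 0 counts in each N clone, at least 74.3-fold higher when each N clone is set to its limit of 3 counts. Most of that mean was A 23-62, without which the A clones had 3.73 CPM and the bound was 21.5-fold, while A 23-108, with 2 counts, lay under the limit itself. In animal 17 neither clone held more than 1 count. Animal 20 went the other way, with 0.196 CPM in A 20-106 and 4.05 CPM in N 20-15. MEG3 was thus higher in A clones in 2 of 4 animals. Without the animal block the log2 fold change was 3.30 and the adjusted p 0.0749.

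Leaving out 1 clone ended the MEG3 call in 15 of 20 fits, with adjusted p between 0.0171 and 0.0878 over all 20. It held only without N 20-15, N 22-18, A 20-106, A 22-121 or A 23-108. The 3 A clones with the most MEG3 were also the 3 A clones with the most KRT8, whereas N 22-5 and N 22-9, with more KRT8 still, held 0 and 0.600 CPM of MEG3. Without all 5 clones the log2 fold change of MEG3 was 2.74 (adjusted p = 0.271), and without N 22-5 and N 22-9 it was 3.76 (adjusted p = 0.110). In animal 22 the log2 difference between A and N clones was 4.21, and 1.18 between the 2 clones of each kind low in KRT8. The part of mesothelial markers in the MEG3 result was not tested beyond these fits.

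PEG3, a paternally expressed zinc finger protein that acts in growth and cell death, was low in all clones. In N clones its counts were 0 in 6 clones and 3, 5, 6 and 19 in the other 4, or 0 to 0.851 CPM with a median of 0. In A clones it had between 10 and 65 counts, or 0.366 to 2.35 CPM with a median of 1.25. All A clones had reads of PEG3, 8 of them lay above every N clone, and N 22-17 was the only N clone that overlapped the A clones. This gave a log2 fold change of 3.45 (SE 0.674, adjusted p = 0.00327).

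The difference in PEG3 had the same direction in 4 of 4 animals. In animal 17 it was at least 4.59-fold (0.749 CPM in A 17-57, 0 counts in N 17-23), and in animal 20 the clones held 1.27 and 0.307 CPM. In animal 22 the means were 1.57 ± 0.57 and 0.296 ± 0.379 CPM, and in animal 23 the A clones had 1.37 ± 0.814 CPM against 0 counts in each N clone, at least 7.93-fold higher (SD, n = 4 each). The call held in all 20 fits with 1 clone left out (adjusted p between 0.000811 and 0.00729) and without the 5 clones rich in KRT8 (log2 fold change 3.27, adjusted p = 0.0279). It was lost without animal 23 (2.57, adjusted p = 0.116). APEG3, the antisense gene of the same locus, had 0 counts in every clone, and it was looked up after the values of PEG3 were seen.

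NDN encodes necdin, a MAGE family protein that holds back cell division and, in mouse preadipocytes, differentiation. In N clones it lay between 0 and 14.8 CPM (median 1.06), and in A clones between 0 and 15.7 CPM (median 11.3). Of the A clones, 8 held 2.67 CPM or more, and only A 17-57 and A 20-106 held less. In N clones 20-15, 22-17, 22-9, 23-23 and 22-18 it was 14.8, 5.29, 2.22, 2.16 and 1.96 CPM, and the other 5 held at most 3 counts. A log2 fold change of 2.46 (SE 1.04) did not pass the test (adjusted p = 0.101).

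Like MEG3, NDN was higher in A clones in animals 22 and 23 and lower in animal 20, and the clones of animal 17 held 0 and 3 counts. The means in animal 22 were 13.2 ± 2.16 CPM in A clones and 2.37 ± 2.18 CPM in N clones, and in animal 23 they were 7.63 ± 4.37 and 0.552 ± 1.07 CPM (SD, n = 4 each). In animal 20 the N clone held 14.8 CPM and the A clone 0.392 CPM, a log2 difference of -4.91. Without N 20-15 the log2 fold change of NDN was 2.85 (adjusted p = 0.0386), and without A 20-106 it was also 2.85 (adjusted p = 0.0373), so this pair of clones decided the call.

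**Figure D2:**
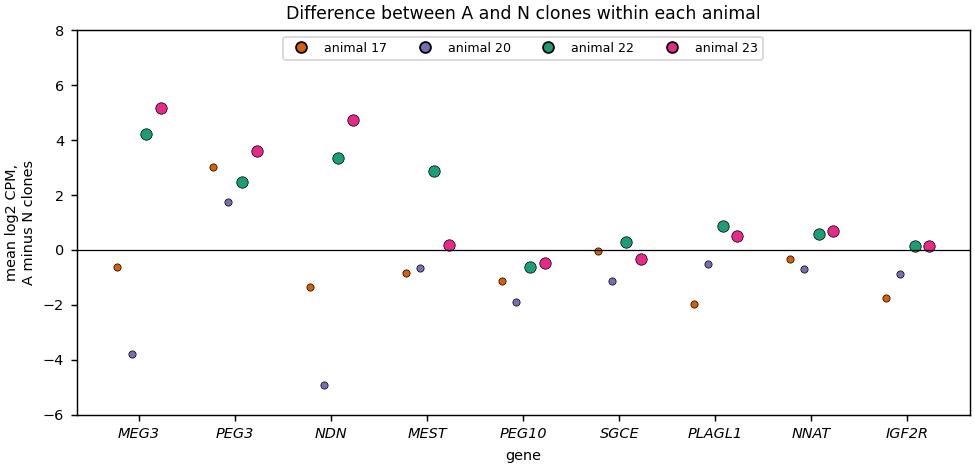
Difference in mean log2 CPM (prior count 2) between the A and N clones of each animal, for the 9 members with reads, with large points for animals with 4 clones of each kind and small points for animals with 1. PEG3 lay above 0 in 4 of 4 animals and PEG10 below 0 in 4 of 4, while MEG3 and NDN lay above 0 in animals 22 and 23 and below 0 in animals 17 and 20, with at most 3 counts in the clones of animal 17.

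PLAGL1, a zinc finger transcription factor that slows growth and acts on other imprinted genes, was expressed in every clone. It lay between 29.7 and 139 CPM in N clones (median 54.3) and between 35.6 and 99.1 CPM in A clones (median 70.4). The groups overlapped widely, and N 17-23 stood above all other clones. Its log2 fold change was 0.32 (SE 0.245, adjusted p = 0.36). Without N 17-23 or without A 17-57 it was 0.54 (adjusted p = 0.0443 and 0.0444), since either way animal 17, whose A clone was 1.96 log2 units below its N clone, no longer enters the comparison. In animal 20 the A clone was also lower, with 36.8 CPM in A 20-106 and 52.7 CPM in N 20-15. PLAGL1 was thus higher in A clones in 2 of 4 animals.

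PEG10 and SGCE start next to each other and are read in opposite directions from a shared imprinted control region. PEG10, a protein derived from a retrotransposon that is needed in the placenta, lay between 27.5 and 184 CPM in N clones (median 48.3) and between 13.8 and 94.9 CPM in A clones (median 32.7). The highest values were in N 22-17 and N 22-9 and the lowest in A 23-108 and A 20-106, with the other 16 clones overlapping. Its log2 fold change was -0.78 (SE 0.389, adjusted p = 0.159). The A clones were lower in 4 of 4 animals, by log2 differences of -1.12, -1.90, -0.60 and -0.48 in animals 17, 20, 22 and 23. Without A 23-62, the A clone with the most PEG10, the log2 fold change was -1.09 (adjusted p = 0.0312). This was the only 1 of 38 alternatives in which PEG10 was called. It was not called in 19 of the 20 fits with 1 clone left out (adjusted p up to 0.289).

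SGCE, the epsilon member of the sarcoglycans that tie the cell skeleton to the matrix, lay between 17.1 and 96.1 CPM in N clones (median 63.8) and between 30.7 and 69.4 CPM in A clones (median 60.6). The log2 fold change was -0.20 (SE 0.235, adjusted p = 0.567), with a 95% interval from -0.66 to 0.26. For each read of SGCE there were between 0.47 and 2.45 reads of PEG10 in N clones (median of 1) and between 0.390 and 1.93 in A clones (median 0.602). N 22-9, N 22-5 and N 22-17 had the highest ratios among N clones and A 23-62 among A clones, and both kinds of clones spanned nearly the same range. No test of this ratio was made.

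MEST, an enzyme of the hydrolase fold family that rises in the expanding fat of mice, was low in most clones. It lay between 0.0565 and 2.40 CPM in N clones (median 0.911) and between 0.477 and 13.3 CPM in A clones (median 1.77). A 22-11 held 13.3 CPM and the next clone, A 22-16, held 4.41 CPM. The log2 fold change was 1.18 (SE 0.652, adjusted p = 0.2). With DESeq2 and no animal block, the only alternative in which MEST was called, it was 1.47 (adjusted p = 0.0404). The difference was seen mainly in animal 22, where the log2 difference was 2.88, against 0.166 in animal 23 and values below 0 in animals 17 and 20. In animal 22 the highest clones, A 22-11 and A 22-16, and the lowest, N 22-5 and N 22-9, were those rich in KRT8, and the other 2 clones of each kind differed by 1.09. Over all animals without the 5 clones rich in KRT8, the log2 fold change of MEST was 0.28 (adjusted p = 0.679).

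NNAT encodes neuronatin, a small membrane protein of the endoplasmic reticulum, and lies next to BLCAP. It lay between 2.19 and 19.1 CPM in N clones (median 5.63) and between 2.23 and 15.3 CPM in A clones (median 9.75), with wide overlap. The log2 fold change was 0.38 (SE 0.324, adjusted p = 0.409). The N clones of animals 17 and 20, with 19.1 and 18.7 CPM, were the highest of all clones.

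IGF2R, the receptor that carries enzymes tagged with mannose 6-phosphate to the lysosome and takes up the growth factor IGF2, ran from 265 to 1162 CPM in N clones (median 597) and from 209 to 1078 CPM in A clones (median 535). The log2 fold change was -0.23 (SE 0.295, adjusted p = 0.596), with a 95% interval from -0.81 to 0.34. The clone with the most IGF2R held 4.38 times the level of the lowest clone among N clones and 5.15 times among A clones. AIRN, the antisense RNA of this locus, had between 0 and 14 counts per clone, and whether the authors counted by strand was not given in the sources used here.

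MEG3 and NDN were each at or near 0 in some clones and well detected in others. PEG3 was at or near 0 in some clones and low in the rest, with 65 counts at most. At most 3 counts of PEG3 were found in 7 N clones and 0 A clones, of MEG3 in 6 N and 2 A clones, and of NDN in 5 N and 1 A clones. In 5 clones, N 17-23, N 22-5, N 23-10, N 23-22 and N 23-74, all 3 genes were at 3 counts or fewer. No A clone could share this, since each held at least 10 counts of PEG3. For MEG3 and NDN alone, 1 A clone, A 17-57, was this low beside the same 5 N clones. In a clone's bulk RNA, fewer expressing cells and less RNA per cell cannot be told apart.

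The neighbours of these genes, picked after their values were seen, overlapped with them in part. The clones with at most 3 counts of MEG3 also had at most 3 of MEG8 and of MEG9, non-coding RNAs of the same domain. MEG9 was low throughout and passed 3 counts in 1 N and 5 A clones, against 4 and 8 for MEG3. In the 10 clones with at least 20 counts of MEG3, there were between 18.2 and 43.0 reads of MEG8 for every 100 of MEG3. MAGEL2 and MKRN3, beside NDN, were at 3 counts or fewer in all 6 clones with at most 3 counts of NDN. MKRN3 was, however, at 0 counts in all N clones of animal 22, of which N 22-9, N 22-17 and N 22-18 held 37, 118 and 77 counts of NDN, and it passed 3 counts in 2 N clones against 5 for NDN. In contrast, SNRPN of the same imprinted region was read at 29.0 to 67.0 CPM in all 20 clones. H19, the maternally expressed RNA of the IGF2 domain, ranged from 0 counts in N 23-74 to 18193 counts in A 22-11.

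**Figure D3:**
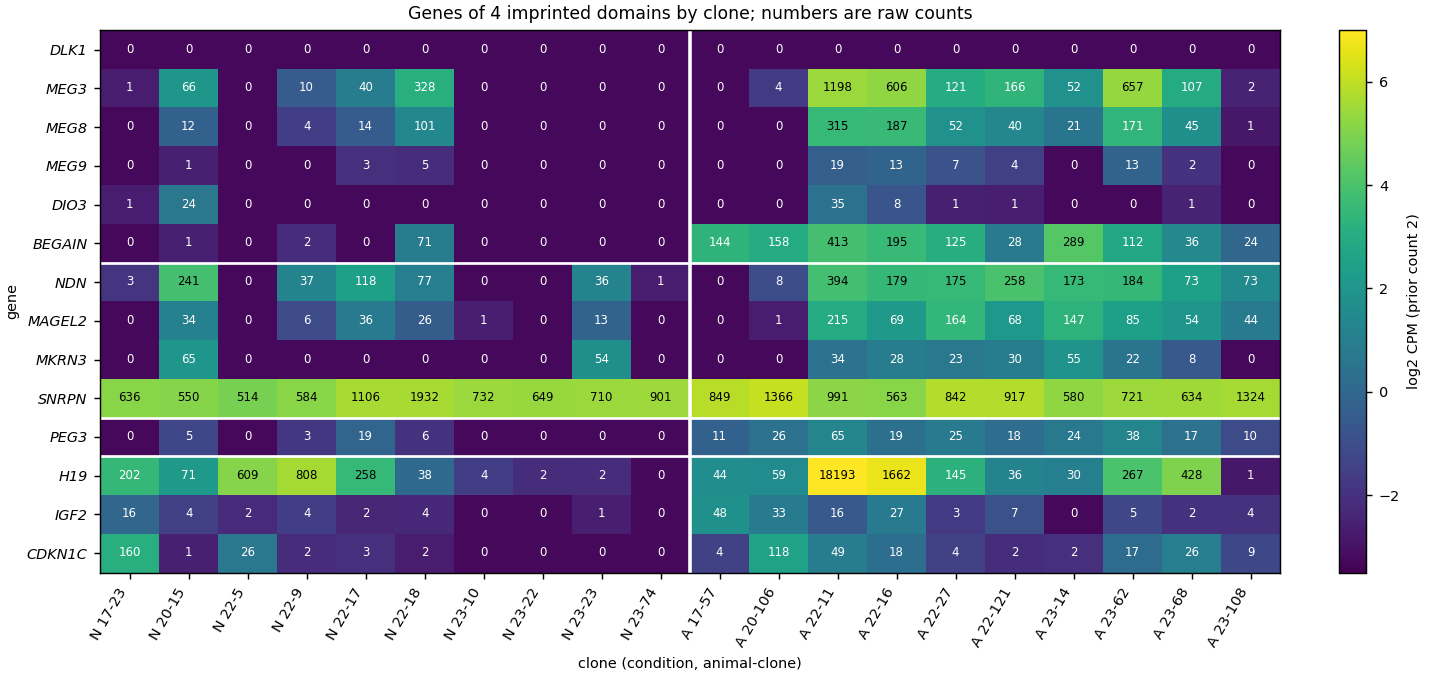
Raw counts (numbers) and log2 CPM with a prior count of 2 (colour) of 14 genes of 4 imprinted domains in each clone, with N clones at the left of the vertical line and A clones at its right. MEG3, MEG8 and MEG9 were all at 3 counts or fewer in 6 N and 2 A clones, NDN, MAGEL2 and MKRN3 were so in 5 N and 1 A clones, SNRPN was read in every clone and DLK1 in none.

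Among the other imprinted genes listed, 25 of the 48 in the table could be tested, and 5 of these (20%) were higher and 0 lower in A clones, where 10.3% of all genes tested were higher and 10.3% lower. BEGAIN, a gene of the DLK1 domain, had the largest change and, like PEG3, passed the filter on low counts mainly through its A clones. It was at 0 counts in 7 N clones, at 1.81 CPM at most in the others, and between 0.879 and 18.9 CPM in A clones, with 8 A clones above every N clone (log2 fold change 5.78, SE 1.01, adjusted p = 0.0019). MAGEL2, a ubiquitin ligase partner that lies beside NDN, lay between 0 and 2.09 CPM in N clones and between 0 and 10.8 CPM in A clones (3.42, SE 0.981, adjusted p = 0.0238). It was higher in A clones in animals 22 and 23, lower in animal 20, and at 0 in both clones of animal 17.

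TSSC4 and NAP1L4, of the IGF2 domain, rose by small amounts, with log2 fold changes of 0.28 (SE 0.0693, adjusted p = 0.0106) and 0.29 (SE 0.0813, adjusted p = 0.02). TSSC4 was not called without the animal block (adjusted p = 0.0857). DIRAS3, a small GTPase that restrains growth, had a log2 fold change of 1.93 (SE 0.667, adjusted p = 0.0494). Its highest value, 57.4 CPM, was in N 20-15, no other clone passed 13.9 CPM, and its log2 fold change without the animal block was -0.20 (adjusted p = 0.897). With no filter on low counts, 1 member (PEG3) and 8 of 46 other imprinted genes were called, all of them higher in A clones, where 11.8% of 23383 genes were called and 6.89% were called as higher. The DIRAS3 call was lost in 16 of 20 fits that left out 1 clone (adjusted p between 0.00642 and 0.0936). Without the 5 clones rich in KRT8, BEGAIN was called (log2 fold change 5.95, adjusted p = 0.025), whereas MAGEL2 (3.12, adjusted p = 0.121), TSSC4 (adjusted p = 0.0701), NAP1L4 (adjusted p = 0.0538) and DIRAS3 (1.91, adjusted p = 0.197) were not.

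**Figure D4:**
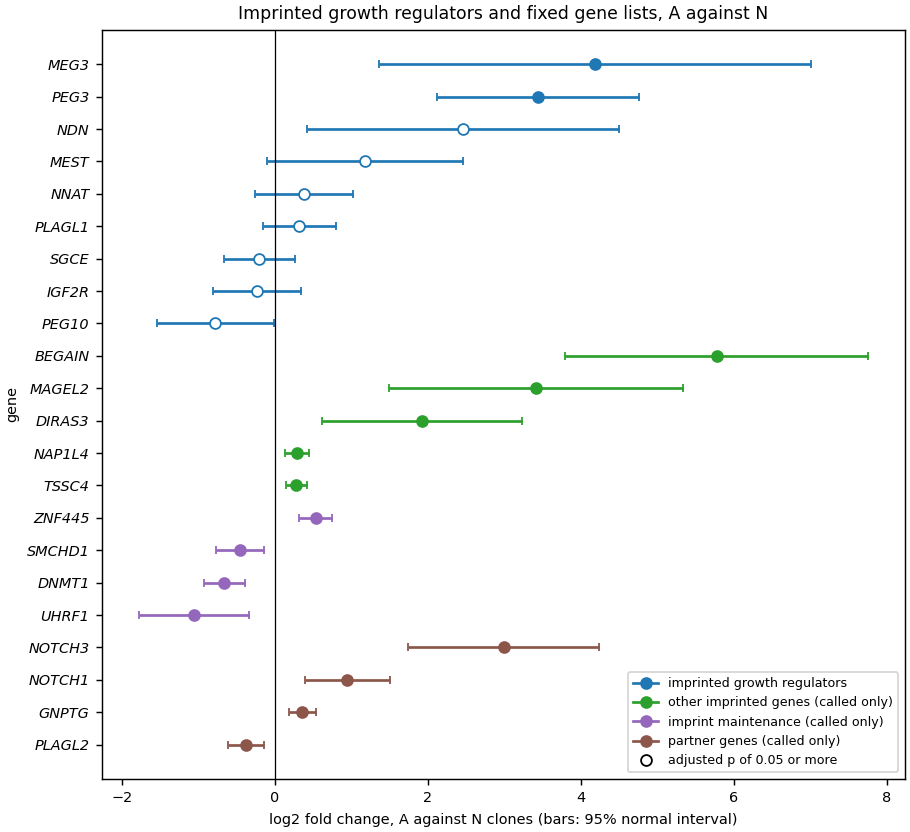
Log2 fold change of A against N clones for the 9 members tested and for each gene of the other fixed lists past the threshold, with bars of the 95% normal interval and open points for an adjusted p of 0.05 or more. PEG3 (3.45) and MEG3 (4.19) are the filled points among the members, and the bars of MEG3, NDN and PEG3 are the widest of the members.

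Imprints are kept through cell division by DNMT1, which copies DNA methylation, by UHRF1, which brings it to the new strand, and by zinc finger proteins such as ZFP57 and ZNF445 that bind imprinted control regions. The list tested, called imprint maintenance below, was wider and also held genes such as DNMT3A, DNMT3B, TET1, TET2, TET3 and CTCF. Of its 12 genes tested, 1 was higher and 3 were lower in A clones, together 33.3% of those tested beside 20.6% of all genes. ZNF445 lay between 10.7 and 20.3 CPM in N clones and between 17.0 and 27.3 CPM in A clones (log2 fold change 0.53, SE 0.11, adjusted p = 0.00433). DNMT1 lay between 38.7 and 83.5 CPM in N clones and between 21.9 and 49.3 CPM in A clones (-0.66, SE 0.139, adjusted p = 0.00506). UHRF1 (-1.06, SE 0.366, adjusted p = 0.0488) and SMCHD1, a chromatin protein that silences some imprinted genes (-0.46, SE 0.158, adjusted p = 0.0489), were at the threshold, and each lost its call in 16 of 20 fits without 1 clone and in the fit without the animal block. Without the 5 clones rich in KRT8, DNMT1 was called (-0.57, adjusted p = 0.0362) while ZNF445 (0.42, adjusted p = 0.0646), UHRF1 (-1.19, adjusted p = 0.14) and SMCHD1 (-0.28, adjusted p = 0.312) were not. Beside them, 5 of 8 proliferation markers were lower in A clones, with summed levels of 29.1 to 328 CPM (median 141) in A clones and 115 to 546 CPM (median 302) in N clones. The part of proliferation in the DNMT1 and UHRF1 results was not tested.

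Of 21 tested genes whose products work with the members, 3 were higher and 1 was lower in A clones, together 19% of those tested, a share near the 20.6% of all genes. NOTCH3 and NOTCH1, receptors of the Notch pathway with which DLK1 interacts, had log2 fold changes of 2.99 (SE 0.635, adjusted p = 0.00521) and 0.95 (SE 0.282, adjusted p = 0.0265). NOTCH3 ran from 0.226 to 37.6 CPM in N clones and from 6.75 to 62.4 CPM in A clones. It is also a marker of smooth muscle and pericytes, a list of which 3 of 6 tested genes, NOTCH3 among them, were higher in A clones, with sums of 1080 to 9970 CPM in N clones and 4340 to 11100 CPM in A clones. The NOTCH1 call was lost without N 20-15 or A 20-106 (adjusted p = 0.0542 each) and without the 5 clones rich in KRT8 (adjusted p = 0.0687), where NOTCH3 was called (2.73, adjusted p = 0.0312). Without the animal block NOTCH3 was not called (log2 fold change 1.98, adjusted p = 0.0794). HES1 and SOX9, targets of the Notch and DLK1 pathways, had log2 fold changes of -0.33 (adjusted p = 0.231) and -0.47 (adjusted p = 0.342).

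On the mannose 6-phosphate route that IGF2R serves, GNPTG, a subunit of the enzyme that makes the tag, rose by a log2 fold change of 0.36 (SE 0.0922, adjusted p = 0.013), which was not called without the animal block (adjusted p = 0.118) or without the 5 clones rich in KRT8 (adjusted p = 0.0856). M6PR, the other receptor for the tag, had a log2 fold change of -0.06 (adjusted p = 0.588). PLAGL2, a relative of PLAGL1 that promotes growth, was lower (-0.37, SE 0.121, adjusted p = 0.0381), a call lost in 15 of 20 fits without 1 clone, without the animal block (adjusted p = 0.0509) and without the 5 clones rich in KRT8 (adjusted p = 0.188). None of the 4 tested sarcoglycan complex genes and none of the 3 tested partners of NDN passed the test.

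With animal and condition taken out, the clones varied more in the members than in most genes of like abundance. This spread also holds any difference between animals in the change from N to A clones, such as the reversed one of MEG3 and NDN in animal 20. It is thus not only the spread among clones of 1 kind and animal, which animals 17 and 20, with 1 clone of each kind, cannot give. The residual SD of log2 CPM after animal and condition was compared with that of the 645 genes in the same of 20 bins of mean level. MEG3 had a residual SD of 2.58, at percentile 98.0 of its bin, NDN one of 2.34 at percentile 97.2, PEG10 one of 0.898 at percentile 94.9 and SGCE one of 0.606 at percentile 91.3. PLAGL1, IGF2R, MEST and NNAT lay at percentiles 89.8, 88.8, 77.5 and 75.2, and PEG3 lay at 57.8. The median percentile of the 9 members was 89.8, against 74.5 for 25 other imprinted genes and 50 for all genes by construction. These percentiles are a description, with no test.

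**Figure D5:**
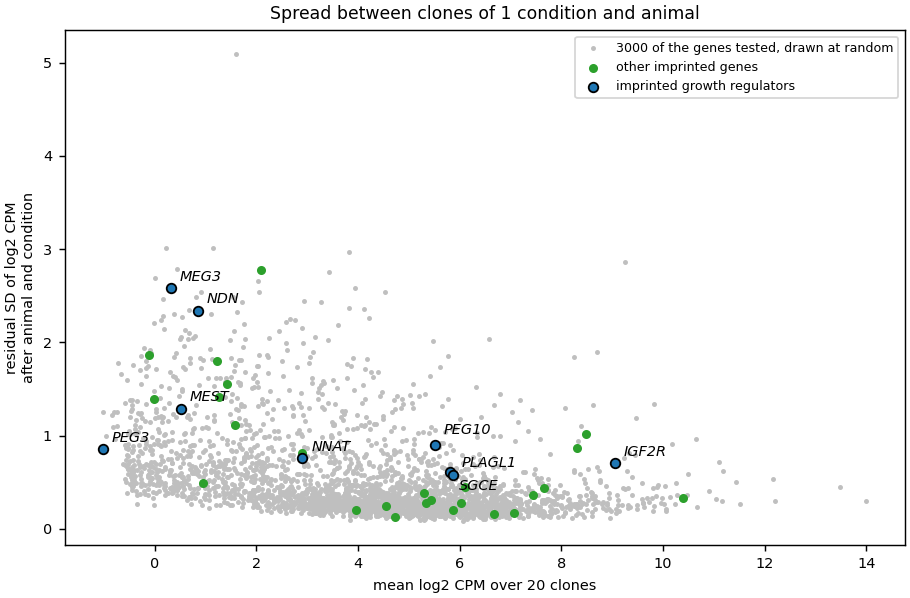
Residual SD of log2 CPM after animal and condition against mean log2 CPM (prior count 2) over 20 clones, for 9 members (blue, named), 25 other imprinted genes (green) and 3000 genes drawn at random from those tested (grey). MEG3 and NDN, at 2.58 and 2.34, lie near the top of the genes of their level, and PEG3, at 0.855, lies near the middle.

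The level of the members was also tested for an effect of the animal of origin. None of the 9 passed this test of the 3 animal terms in the same fit, which 4.6% of all genes passed, and 1 of 9 had an unadjusted p under 0.05, as did 2835 of 12900 genes. The smallest adjusted p was that of NNAT (0.135). Whether A and N clones differed by different amounts in animals 22 and 23 was tested on their 16 clones, and 0 of 9 members and 4 of 12915 genes (0.031%) passed. Unadjusted p under 0.05 was reached by 2 members and 1170 genes. MEST had an interaction of -2.99 log2 units (SE 1.05, p = 0.0126, adjusted p = 0.446), and PEG3 had p = 0.0134 (adjusted p = 0.446) in a fit in which the N clones of animal 23 were all at 0 counts.

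Neighbours within a domain were compared across the 10 clones of each kind, in 5 gene pairs and thus 10 relations, and none passed after Benjamini-Hochberg adjustment. PEG10 and SGCE had a Pearson's r of 0.65 in A clones (permutation p = 0.0444, adjusted p = 0.185) and a Spearman's rho of 0.612 (permutation p = 0.0664, adjusted p = 0.512). The r was 0.784 without the 2 clones farthest from the median of PEG10, and 0.538 in the 8 A clones of animals 22 and 23 after centring on the animal. In N clones the r was 0.381 (permutation p = 0.281, adjusted p = 0.469). MEST and COPG2 had an r of 0.739 in N clones (permutation p = 0.0495, adjusted p = 0.185) and a rho of 0.285 (permutation p = 0.425), and the former rested on N 22-5 and N 23-23 and was 0.142 without them. For SGCE and CASD1, NNAT and BLCAP, and NDN and SNRPN, r ran from -0.615 to 0.546 with permutation p of 0.0555 or more.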

How the data were processed

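RNA of 20 clonal bovine MSC cultures was sequenced with a directional kit. The values used are raw counts of reads for each gene and clone, as deposited by the authors. Per the labels and the submitters' processing notes, reads were handled with bcl2fastq 2.20, Trimmomatic 0.36, STAR 2.5.2b and featureCounts of Subread 1.5.2 on ARS-UCD1.2, and unique reads within exons were counted. The strand setting is not given in the sources used here, so antisense and overlapping genes are uncertain. Condition, animal and clone were taken from the labels. The 1 row without a name, with 0.113% to 0.333% of a clone's counts, was left out of 33064. The number of columns from outside the series was 0.

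From these counts, edgeR 4.0.16 in R 4.3.3 (TMM, default expression filter, robust quasi-likelihood test, Benjamini-Hochberg adjustment over all 12900 genes tested) was fitted to all 20 clones with animal as a block, and a gene was called at an adjusted p under 0.05. Levels are TMM-scaled CPM, with a prior count of 2 on the log2 scale. A and N clones are paired through their animal, and their deviations from the group means had correlations of 0.253, 0.193, 0.241 and 0.44 in animals 17, 20, 22 and 23. The 2 most alike clones still differed beyond sampling noise (chi-square per degree of freedom of 23). Correlations used two-sided permutation tests of 100000 resamples. The scripts were tested on simulated data, in which only well-counted genes of modest spread were changed. Those runs do not show how the test performs on genes as low as PEG3 or as variable as MEG3 and NDN.

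The members and the lists were chosen with earlier results of these data known. Named are all members, each listed gene past the threshold, genes of the tested neighbour pairs, and markers beside a result. The planned naming of genes most like DLK1 could not be done, since DLK1 had no counts. MEG8, MEG9, MKRN3, H19, SNRPN by clone, M6PR, HES1, SOX9 and the antisense genes were picked after values were seen. Of the listed genes, CPA4, HYMAI, NPAP1, KCNQ1OT1, MCTS2 and SGCZ were not analysed here. No sequence or coordinate is given. Alternatives were no block, other normalizations and filters, limma-voom in limma 3.58.1, DESeq2 1.42.0 in a blocked and an unblocked fit, counts summed per animal and condition, single animals, and each animal or clone left out. Fits without clones rich in KRT8 were added after the data were seen.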

Additional observations from a re-analysis of the deposited data

Results flagged for a closer look

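In 4 of the 18 groups of 10 clones examined, the lowest or highest clone stood apart from the others in log2 CPM by Dixon's test at its 95% level, which sets the gap to the next clone against the group's whole range. Chance gives about 1 in 20 groups, or 0.9 here, if groups are independent and normally spread. Here each group pools clones of 4 animals, and the SGCE and MEST flags fall on the same clone. In N clones, MEG3, PEG3 and NDN had several clones tied at 0 counts, so no lowest clone could be flagged. The share of flags over all genes was not computed. SGCE was lowest in N 22-5, with 17.1 CPM against 49.8 CPM or more in the other N clones (gap 0.619). MEST was lowest in the same clone, with 1 count (gap 0.470). PLAGL1 was highest in N 17-23, with 139 CPM against at most 61.9 CPM in the other N clones (gap 0.525). NNAT was lowest in A 23-108, with 2.23 CPM against 6.37 CPM or more in the other A clones (gap 0.541). N 22-5 is also the clone with the most KRT8, at 4779 CPM, and the part of this in its SGCE and MEST values was not tested.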

How the results depend on the processing

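The counts of genes called between A and N clones were 2 members, 5 other imprinted, 4 imprint maintenance and 4 partner genes. In the same order they were 1, 3, 2 and 1 with no replicate block (the pairing by animal), beside 2168 of all 12900 genes. With counts summed per animal and condition they were 0, 0, 0 and 0. There edgeR called 0 of all 14669 genes, and PEG3 and PEG10 had unadjusted p of 0.0218 and 0.0123. Animal 22 alone gave 0, 1, 0 and 0 and animal 23 alone 0, 2, 1 and 0. Leaving out animal 22 gave 0, 2, 1 and 2, with 1471 of all 12816 genes called. Leaving out animal 23 gave 0, 0, 0 and 0, with 32 of all 13071 genes called. Over all genes, animal 22 alone gave 153 calls of 13305 and animal 23 alone 800 of 12853, and 1076 of 12909 were called without the 5 clones below. Without N 22-5 and N 22-9 they were 1, 3, 3 and 2, and without the 5 clones over 100 CPM of KRT8 1, 1, 1 and 1. With no filter on low counts 1 member, 8 other imprinted and 2 maintenance genes were called, beside 2755 of all 23383 genes. A minimum of 10 counts in each clone gave 0 members, as PEG3 and MEG3 were then left out. It gave 3 other imprinted genes, beside 2294 of all 10879. DESeq2 with the block called 14 of 46 other imprinted genes (13 higher, 1 lower), beside 4120 of all 17398 genes. Without the block it called 8 of 46 and 2 of 12 maintenance genes, beside 3344 of all 17938 genes. limma-voom called 1 member and 2 maintenance genes, beside 2569 of all 12900 genes. Without animal 17 there were 2 maintenance genes, beside 2352 of all 12904. Leaving out each clone gave 1 to 3 members, 4 to 6 other imprinted, 2 to 4 maintenance and 3 to 6 partner genes. PEG3 kept its call in 32 of 35 alternatives and MEG3 in 10 of 35. In animal 23 alone and without animal 22 the filter left both out. Signs turned for DIRAS3 with no replicate block (-0.20), PLAGL1 with summed counts (-0.282) and without animal 22 (-0.0445), MEST without animal 22 (-0.115), SGCE in animal 22 alone (0.0748) and IGF2R in animal 23 alone (0.045), all below the threshold there. The cause was not tested. Depth limits PEG3 and N clones at 0 counts of MEG3.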
